A study of Mus musculus with 3 samples.

Results

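The 200 cells described here were chosen by the share of their unique molecular identifiers (UMIs, 1 per captured transcript) that fell on 10 genes of the passage from G1 into S phase: Mcm3, Mcm5, Mcm6, Ccne1, Ccne2, Cdc6, Dtl, Gins2, Uhrf1 and Slbp, called the rule genes below. They are the 200 cells with the highest such share among the 3284 cells of library 3 that held at least 2000 UMIs, out of 7522 cells in the series. They are called high-share cells here, and they were set against the 803 cells of library 3 with no UMI of any rule gene. Per the labels, microglia were sorted from lumbar cords of C57BL/6 mice as cx3cr1-YFP(+) cells. Per the study, whose text names another data record and kit version than the labels, the mice were young adults, heterozygous for Cx3cr1-creER-yfp/+. In these mice the Cx3cr1 promoter drives CreER and YFP, and any other cell with an active Cx3cr1 promoter would enter the same gate. The animals were naive or had a sciatic nerve transection 24 or 48 h before, with the cords of 3 animals pooled per group, as the study's methods state. The deposited table holds 3 libraries, told apart by the suffix of the cell barcode, and the labels do not tie a suffix to a time point. Library 3 is therefore of unknown time point, each time point is a single library, and no test between conditions was possible.

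Library 3 held 3322 cells and 19769170 UMIs, with a median of 5742 UMIs per cell. Library 2 held 3591 cells with a median of 5952 UMIs, and library 1 held 609 cells with a median of 2218. Among the barcodes, 25 occurred in more than 1 library, 19 of them in libraries 2 and 3, and 4 of the 200 high-share cells carried such a barcode. The high-share cells had a median of 5873 UMIs (range 2128 to 22106) against 5001 in the cells without rule UMIs, and 12 of the 200 exceeded 10000 UMIs against 4 of the 803. After each cell was thinned to 2000 UMIs, the median number of genes detected was 1120 in the high-share cells and 1099 in the cells without rule UMIs. The median mitochondrial share was 1.22% and 1.17%. All values below are UMIs summed over cells and expressed as counts per 1000000 UMIs (CPM), intervals are exact 95% Poisson or binomial intervals that cover counting error only, and cells were not treated as replicates.

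A cell that leaves G1 phosphorylates the retinoblastoma protein and thereby frees E2F transcription factors, which switch on the genes for DNA replication. Cdc6 and Cdt1 load the MCM helicase ring at origins, cyclin E with its kinase fires those origins, and the polymerases, the PCNA clamp, nucleotide synthesis and histone supply follow as S phase proceeds. Adult microglia are long-lived resident macrophages that seldom divide in the healthy cord and proliferate after peripheral nerve injury. Markers of mitosis such as Mki67 and Top2a accumulate later in the cycle than the genes of origin licensing.

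The high-share cells were microglia by their markers, and they did not form a separate group by their share of rule UMIs. P2ry12 was detected in 98.0% and Tmem119 in all of them after thinning to 2000 UMIs, and P2ry12 in 98.8% and Tmem119 in all of the cells without rule UMIs. Their shares ran from 0.231% (18 of 7782 UMIs) down to 0.0710% (3 of 4228 UMIs), with a median of 0.0840%. The 199th cell stood at 0.0711%, the 201st at 0.0708% (3 of 4239 UMIs) and the 202nd at 0.0705%, so no gap lay at the boundary. The number of rule UMIs per high-share cell ranged from 2 to 21 with a median of 5, and 115 of the 200 held 5 or fewer. At least 8 rule UMIs were found in 39 cells.

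**Figure D1:**
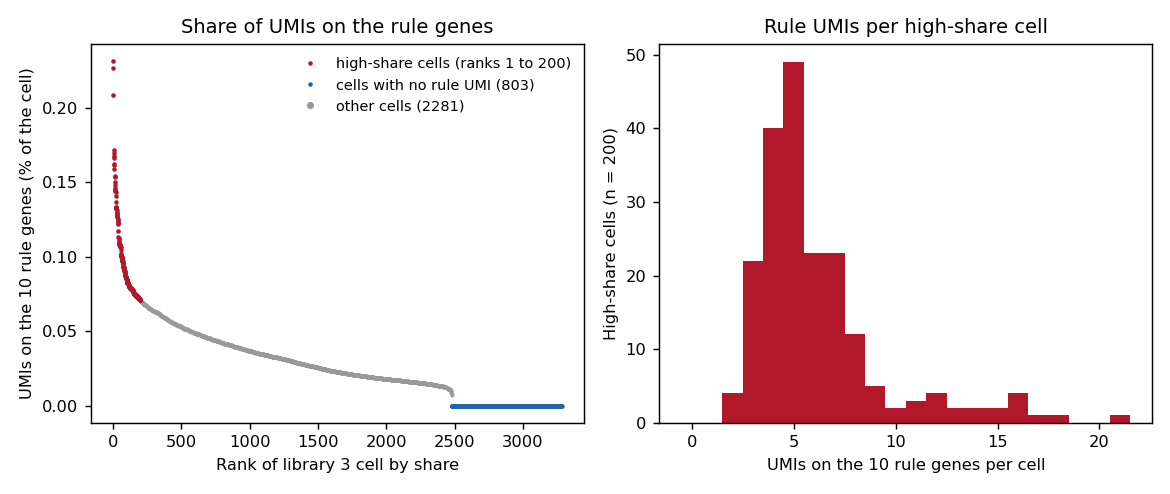
Left, the share of a cell's UMIs that fell on the 10 rule genes (percent, vertical axis) against the rank of the 3284 cells of library 3, with the 200 high-share cells in red, other cells in grey and the 803 cells without rule UMIs in blue. Right, the number of rule UMIs in each of the 200 high-share cells: the median is 5, and the tail reaches 21.

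The choice rested unevenly on the 10 genes. Slbp, whose product binds the stem-loop of histone mRNAs, gave 467 of the 1224 rule UMIs of the high-share cells (38.2%) and was detected in 177 of them. The helicase subunits followed, with Mcm3 detected in 127, Mcm6 in 101 and Mcm5 in 86 cells. At least 1 of these 3 subunits was present in 176 cells, and all 3 in 31. Dtl, the receptor of the ubiquitin ligase that removes Cdt1, was detected in 62 cells, Gins2, a GINS subunit of the replicative helicase, in 42, and Uhrf1, which brings Dnmt1 to newly copied DNA, in 40. The E cyclins were sparse, with Ccne1 in 22 cells and Ccne2 in 20, and 34 cells held a UMI of either. The loading factor Cdc6 was found in 10 cells. At least 3 distinct rule genes were seen in 146 cells, whereas 15 cells showed a single rule gene, which was Slbp in 14 of them. Of the 4 marker genes that name these cells, Mcm5 and Mcm6 were thus present in many of them, and Ccne1 and Cdc6 were undetected in most.

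The levels of the rule genes in the high-share cells are fixed by the choice, and are given as a description. Mcm3 stood at 183 CPM against 66.4 CPM in the other 2281 cells of library 3 with at least 1 rule UMI, Mcm6 at 115 against 33.0 and Mcm5 at 92.6 against 26.9. Slbp stood at 373 against 152 CPM, Dtl at 71.9 against 9.83 and Ccne2 at 34.3 against 2.02. Summed over all 10 genes, the level was 977 CPM in the high-share cells, 320 in the other cells and 0 in the comparison cells.

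To see the rule genes in reads that had not chosen the cells, the UMIs of every cell were split at random into 2 parts, 200 cells were chosen on the first part, and their levels were read in the second. In the first part these cells had 1228 CPM of rule genes, and in the second part 494 CPM, against 243 CPM in the 1482 cells with no rule UMI in the first part and 288 CPM over all cells. The ratio was 2.03 (interval 1.78 to 2.31). Of the 200 cells, 79 (39.5%) had no rule UMI in the second part, compared with 54.2% of the 1482, and 113 of the 200 were among the high-share cells chosen on all UMIs. The choice thus picked up a difference that recurred in unused UMIs, at a much smaller size than the share that defined it.

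This recurrence was larger for the E cyclins, Dtl and Cdc6 than for Slbp. In the unused UMIs Ccne2 was 17.5-fold higher (interval 7.46 to 45.7; 21 UMIs in the chosen cells and 8 in the others). Dtl was 8.26-fold (4.47 to 15.4), Ccne1 7.89-fold (3.26 to 19.4) and Cdc6 6.68-fold (1.78 to 24.97; 6 UMIs in each group). Uhrf1 was 3.34-fold, Mcm5 2.63-fold, Mcm6 2.201-fold, Gins2 2.03-fold and Mcm3 1.82-fold, each with an interval above 1. Slbp was 1.252-fold, with an interval from 0.998 to 1.56.

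A second way of taking a gene out of its own selection gave a similar order. When each rule gene was left out and the other 9 chose 200 cells, Ccne2 was 11.3-fold higher in the chosen cells (24.5 against 2.17 CPM), Dtl 11.8-fold (53.02 against 4.51 CPM) and Ccne1 6.02-fold (14.5 against 2.40 CPM). Cdc6 had 12 UMIs against 3, a ratio of 13.2 with a wide interval (3.56 to 72.8). Mcm6 was 3.43-fold and Mcm5 3.05-fold, while Slbp stood at 179 against 126 CPM, or 1.42-fold (1.23 to 1.64). Leaving out Slbp exchanged 82 of the 200 cells, since 118 remained, and leaving out Cdc6 exchanged a single cell.

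**Figure D2:**
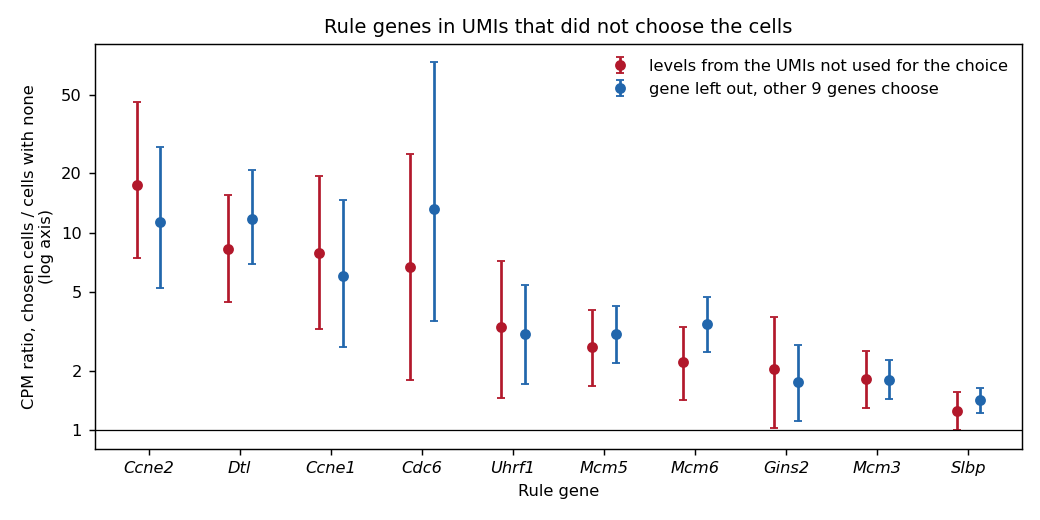
Ratio of CPM between chosen cells and cells without rule UMIs for each rule gene (log axis), from UMIs not used in the choice (red) and with the gene itself left out of the choice (blue). Points are ratios and bars exact 95% counting intervals: Ccne2 stood at 17.5 and 11.3, and Slbp at 1.252 and 1.42.

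Most pairs of rule genes did not separate over all 3284 cells, where a rule gene was looked for in cells with and without a UMI of another, at 2000 UMIs per cell. Of 63 such ordered pairs, which needed at least 50 cells with a UMI of the other gene, the share was higher in cells with that gene in 47 pairs and lower in 16. The intervals lay apart in 6, all of them higher, which came from Mcm5 with Mcm6, Mcm5 with Uhrf1 and Dtl with Uhrf1, each read both ways. In 7 pairs the 2 genes were never found together, and no pair with an E cyclin or Cdc6 had intervals that lay apart. Mcm5 was detected in 9.1% of the 186 cells with an Mcm6 UMI (interval 5.4 to 14.2) and in 4.1% of the cells without one (3.5 to 4.9). Uhrf1 was detected in 6.9% of the 145 cells with an Mcm5 UMI (3.4 to 12.3) and in 1.7% of those without (1.2 to 2.2). Slbp was detected in 24.2% of the cells with an Mcm6 UMI (18.2 to 31.0) and in 23.5% of the 3098 without, and none of the 15 pairs with Slbp had intervals that lay apart. Gins2 ran the other way with Mcm3, at 1.97% of the cells with an Mcm3 UMI (0.79 to 4.01) and 3.04% of those without (2.45 to 3.73), within the counting error.

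E2F recognises a short GC-rich site, and the promoters show where 4 spellings of it (TTTCGCGC, TTTGGCGC, TTTCCCGC and TTTGCCGC, on either strand) lie in the rule genes. Of the 10 rule genes, 8 had a RefSeq promoter (250 bases before the start, build GRCm38.p6), and 5 of these held such a match (62.5%). The share was 17 of 108 genes of the 5 DNA replication lists (15.7%) and 2.16% of all 27025 genes. The rule genes were picked for the passage from G1 into S phase, so their share describes that choice and not these cells. Other strings were counted too. CCAAT was in 6 of the 8 rule genes, 75% against 37.5% of all genes. TTTGAA (18.3% of all genes) and CACGTG (6.86%) were in none of the 8. Among genes with a promoter in the table, the E2F letters were present in 8 of the 84 (9.52%) that were at least 1.5-fold higher in the high-share cells. They were present in 4.20% of all genes compared. The 3 promoters below belong to rule genes with an E2F match and are shown for the E2F letters. The rule fixed the levels of these genes, so their order has no meaning. Each is printed 5′ to 3′ on the strand of the gene up to the base before the transcription start, Mcm5 with all 250 bases, Mcm6 with the last 150 and Dtl with the last 100, which hold all their matches, with the matching letters in capitals.
Mcm6, chr1:128359706-128359855, minus strand: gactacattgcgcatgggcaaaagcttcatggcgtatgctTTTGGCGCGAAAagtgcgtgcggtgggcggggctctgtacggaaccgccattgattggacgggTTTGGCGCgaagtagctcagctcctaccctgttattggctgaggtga
Mcm5, chr8:75109259-75109508, plus strand: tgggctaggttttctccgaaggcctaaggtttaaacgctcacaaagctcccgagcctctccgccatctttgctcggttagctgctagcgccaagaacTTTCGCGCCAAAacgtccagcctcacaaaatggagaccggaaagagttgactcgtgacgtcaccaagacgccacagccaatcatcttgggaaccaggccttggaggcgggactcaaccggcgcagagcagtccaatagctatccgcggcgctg
Dtl, chr1:191575545-191575644, minus strand: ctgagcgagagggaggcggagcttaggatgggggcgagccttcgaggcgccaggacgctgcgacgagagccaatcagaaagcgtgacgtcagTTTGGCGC
In Mcm6 and Mcm5 the matches on the 2 strands overlapped in a near-palindrome, and in Dtl the match ended at the start site. A match is a string of letters, and binding of E2F was not measured.

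Beyond the rule genes, 5913 genes had a mean of at least 20 CPM over library 3, and their levels were compared as the log2 ratio of CPM + 1 between high-share cells and cells without rule UMIs. The median ratio was 0.02. In the high-share cells 110 genes were at least 1.5-fold higher (1.86%) and 60 at least 1.5-fold lower (1.01%). These 2 shares over all 5913 genes are the background for every list count of library 3 below. Of the genes in the 5 DNA replication lists, 22 of the 60 compared were among the higher genes, and none of these 60 was at least 1.5-fold lower. The median log2 ratio of the 60 was 0.48, and 54 were above 0. Summed over all 131 list genes, including those too low to be compared singly, the level was 5851 CPM against 3967 CPM, a ratio of 1.48 (1.43 to 1.52). When cells were chosen on 1 part of the UMIs and levels read in the other, 175 genes were higher and 196 lower, so the excess of higher over lower genes was lost. The replication lists kept a median of 0.39 in that setting.

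**Figure D3:**
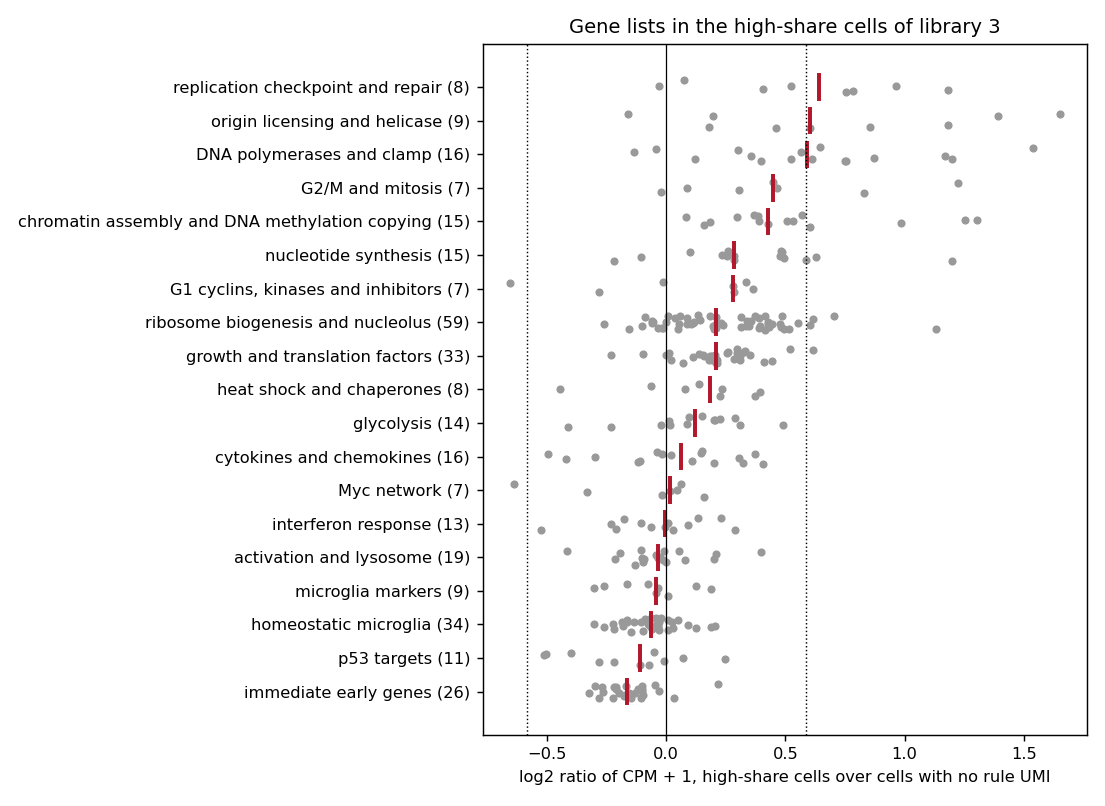
Log2 ratio of CPM + 1 between the 200 high-share cells and the 803 cells without rule UMIs for every compared gene of each list (grey points, number of genes in brackets), with the list median as a red bar and 1.5-fold marked by dotted lines. The 5 replication lists have medians between 0.29 and 0.64, and immediate early genes stand at -0.16.

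Origin licensing and helicase genes had a median log2 ratio of 0.60 over 9 genes, with 5 at least 1.5-fold higher and none lower. Mcm2, a subunit of the helicase ring and not a rule gene, had 65 UMIs in the high-share cells and 65 in the larger comparison group, or 51.9 against 15.8 CPM (log2 ratio 1.65). Mcm7, another subunit, stood at 52.7 against 19.5 CPM (1.39), a log2 ratio that was 0.62 after thinning to 2000 UMIs per cell. Mcm4, below the level for a call, stood at 27.9 against 8.77 CPM. Tipin, which protects stalled forks together with Timeless and is also in the checkpoint list below, stood at 97.4 against 42.4 CPM (1.18). Orc6, of the origin recognition complex, was higher by 0.86, while Orc4 (0.18) and Gins4 (-0.16) were not past 1.5-fold. Cdt1, the loading partner of Cdc6, stood at 31.1 against 14.4 CPM, but was detected in nearly equal shares at 2000 UMIs per cell, 4.5% of the high-share cells (2.1 to 8.4) and 3.9% of the cells without rule UMIs (2.6 to 5.4). Gmnn, its inhibitor geminin, stood at 35.9 against 11.5 CPM.

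DNA polymerases and the clamp had a median of 0.59 over 16 genes, with 8 higher and none lower. Pcna, the sliding clamp, stood at 87.8 against 38.5 CPM (log2 ratio 1.17; ratio 1.77 to 2.93 by its interval). When cells were chosen on 1 part of the UMIs and levels read in the other, its log2 ratio was 0.50, short of 1.5-fold. Rfc4, of the clamp loader, stood at 47.9 against 15.8 CPM (1.54), and Fen1, the flap nuclease of lagging-strand maturation, at 45.5 against 19.2 CPM (1.20). The most abundant gene of the list, Pold4, stood at 165 against 182 CPM (-0.14), and Rfc2, also of the clamp loader, at 168 against 127 CPM (0.40).

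Nucleotide synthesis genes had a smaller median, 0.29 over 15 genes, with 3 higher. Tyms, which makes thymidylate, stood at 45.5 against 19.2 CPM (1.20), Gmps, of guanine nucleotide synthesis, was higher by 0.63, and Impdh2, the step before it, stood at 144 against 95.3 CPM (0.59). The abundant Nme1 (0.29) and Dctpp1 (0.23) were not past 1.5-fold, and Samhd1, which degrades deoxynucleotides, stood at -0.22. Rrm2, the regulated subunit of ribonucleotide reductase, was rare in both groups, with 15 UMIs (11.98 CPM) against 5 (1.22 CPM).

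Chromatin assembly genes had a median of 0.43 over 15 genes, with 4 higher. Cdca7, a partner of the remodeller Hells, stood at 88.6 against 35.3 CPM (1.30), and Cbx5, which encodes heterochromatin protein 1 alpha, at 51.9 against 21.2 CPM (1.253). The histone variant gene H2afz, at 508 against 378 CPM, was higher by 0.43 and short of 1.5-fold. Replication checkpoint and repair genes had the highest list median, 0.64 over 8 genes, with 4 higher, of which Tipin (1.18) had the highest ratio. Usp1, a deubiquitinase of PCNA, stood at 55.1 against 27.8 CPM (0.96), and Rpa2, of the single-strand binding complex, at 59.1 against 34.6 CPM (0.76). Parp1 was at 55.1 against 56.3 CPM (-0.03).

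The regulators upstream of these genes were less uniform. Of the E2F and RB family, E2f4, which acts as a repressor in resting cells, was the single member with a mean of at least 20 CPM over library 3, at 79.8 against 68.7 CPM (0.21). The activator E2f1 was rarer, with 37 UMIs (29.5 CPM) against 47 (11.5 CPM), and at 2000 UMIs per cell it was detected in 6.5% of the high-share cells (3.5 to 10.9) and in 1.9% of the cells without rule UMIs (1.0 to 3.1). E2f2 stood at 10.4 against 2.44 CPM. Rb1 stood at 14.4 against 17.3 CPM. Among 7 G1 cyclins, kinases and inhibitors, none was 1.5-fold higher, and 1 was lower: Cdkn1b, the kinase inhibitor p27, at 18.4 against 29.5 CPM (-0.65, from 23 UMIs in the high-share cells). Cdkn1a, the inhibitor p21, stood at 252 against 307 CPM (-0.28), Ccnd1, cyclin D1, at 172 against 174 CPM (-0.01) and Cdk4 at 138 against 113 CPM (0.28).

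Genes of G2/M and mitosis were higher in sum, and the UMIs of 3 mitotic genes lay in a minority of the high-share cells. The 72 list genes summed to 1106 CPM against 605 CPM (ratio 1.83, interval 1.71 to 1.95), and the 7 that were compared singly had a median log2 ratio of 0.45, with 2 past 1.5-fold. Those 2 were Stmn1, a microtubule-destabilising protein, at 143 against 60.7 CPM (1.22), and Hmgb2, a chromatin protein of proliferating cells, at 174 against 97.4 CPM (0.83). Stmn1 stood at 0.76 without the 20 highest cells and at 1.76 with 100 cells chosen in place of 200. With 400 cells chosen, Hmgb2 stood at 0.54, short of 1.5-fold. The median of the 7 genes was 0.17 with 400 cells and 0.73 with 100 cells. Top2a, the topoisomerase of chromosome condensation, had 52 UMIs (41.5 CPM) against 9 (2.19 CPM), Cdk1, the mitotic kinase, 22 (17.6 CPM) against 12 (2.92 CPM), and Mki67, which encodes Ki67, 14 (11.2 CPM) against 6 (1.46 CPM). These 3 genes together had 88 UMIs in the high-share cells, and 169 of the 200 cells had none of them. The 8 cells with at least 3 such UMIs held 60 of the 88, no cell without rule UMIs reached 3, and 2 of the 2281 other cells did.

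Shares of cells with a UMI were also read at equal depth. A share of a sparse gene at 2000 UMIs falls with the thinning itself and does not count the cells that express it. Of 37 genes read this way, the interval of the high-share cells lay above that of the cells without rule UMIs for 10. The intervals overlapped for the other 27. The 37 genes were picked, mostly from the cell cycle, and no such share was read over all genes, so this count has no background. After thinning to 2000 UMIs, Top2a was detected in 3.5% of the high-share cells (1.4 to 7.1) against 0.5% of the cells without rule UMIs (0.1 to 1.3), and in 9.5% against 1.1% before thinning. Mki67 was detected in 1.5% (0.3 to 4.3) against 0.4% (0.1 to 1.1), a difference within the counting intervals. Pcna was detected in 15.5% (10.8 to 21.3) against 9.3% (7.4 to 11.6), and in 36.5% against 16.9% before thinning, and its intervals at 2000 UMIs overlap. So do those of Tipin, at 10.5% (6.6 to 15.6) against 6.8% (5.2 to 8.8), and of Hmgb2, at 22.5% (16.9 to 28.9) against 16.9% (14.4 to 19.7). Mcm2 was detected in 9.0% (5.4 to 13.9) against 2.7% (1.7 to 4.1), Mcm7 in 6.5% (3.5 to 10.9) against 4.5% (3.2 to 6.2), which overlap, Tyms in 10.5% (6.6 to 15.6) against 4.2% (2.9 to 5.9) and Stmn1 in 40 of the 200 cells (14.7% to 26.2%) against 10.7% (8.7 to 13.1). The cells were sorted as microglia and were not typed singly, so no set of another cell type was at hand to set the level given by free RNA. The cells without rule UMIs serve as the nearest background.

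**Figure D4:**
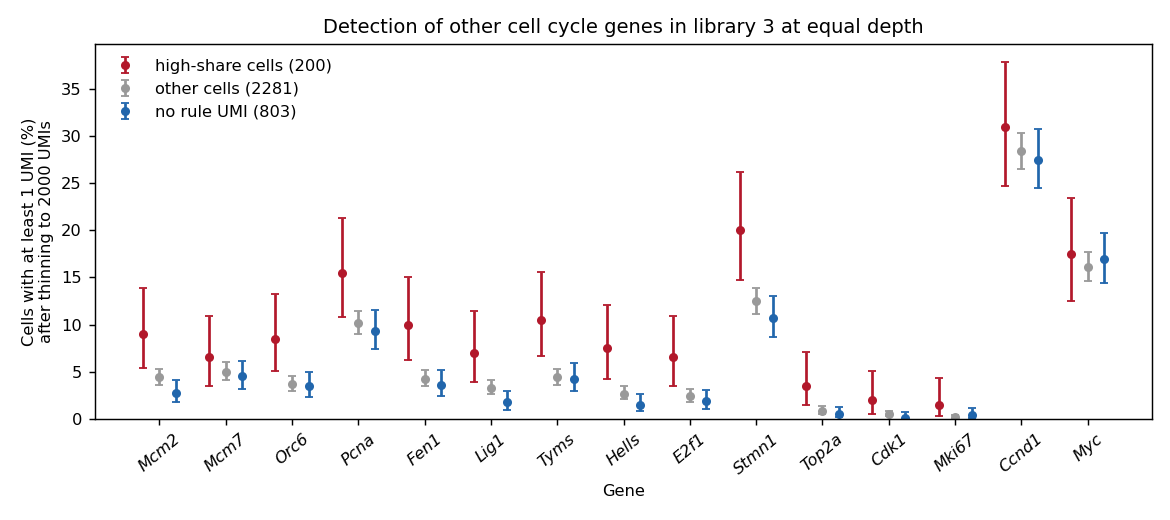
Percent of cells with at least 1 UMI of each gene after every cell was thinned to 2000 UMIs, in the high-share cells (red), other cells (grey) and cells without rule UMIs (blue) of library 3, with exact 95% binomial intervals. Mcm2 (9.0% against 2.7%) and Tyms (10.5% against 4.2%) are higher in the high-share cells, while the intervals of Ccnd1 and Myc overlap widely.

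Within the 200 cells, the sums of the replication and G2/M lists were highest in the first 50, and single genes did not all follow. These cells (shares of 0.108% to 0.231%) had 7377 CPM of the replication lists and 1773 CPM of the G2/M list, and ranks 151 to 200 had 5184 and 656 CPM. The cells just outside the boundary, ranks 201 to 400, had 4999 and 700 CPM, close to the last 50 inside, and the cells without rule UMIs had 3967 and 605 CPM. Stmn1 stood at 291 CPM in the first 50 cells, at 64.0 CPM in ranks 151 to 200 and at 90.7 CPM in ranks 201 to 400. In the cells without rule UMIs it stood at 60.7 CPM. Rrm2 had 13 of its 15 UMIs in the first 50 cells, and Mki67 had 11 of 14. Top2a had 19, 16 and 15 UMIs in the first 3 blocks of 50 cells and 2 in the last. These UMIs came from few cells, since Rrm2 was found in 7 of the 200, Mki67 in 5 and Top2a in 19. A UMI of Mki67, Top2a or Cdk1 was found in 17, 4, 6 and 4 cells of the 4 blocks. Pcna did not fall with rank, at 102, 61.2, 103 and 80.0 CPM in the 4 blocks. Mcm2, in contrast, was at 71.9 CPM in the first 50 cells and still at 38.4 CPM in ranks 151 to 200 and 40.9 CPM in ranks 201 to 400, compared with 15.8 CPM in the cells without rule UMIs. Mcm2 was thus higher throughout the 200 cells and beyond them, whereas the UMIs of Mki67 and Rrm2 lay in few cells, mostly among the first 50.

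Growth genes differed less than replication genes. Of 59 ribosome biogenesis genes, 4 were at least 1.5-fold higher and none lower, with a median log2 ratio of 0.21. Znhit6, an assembly factor of small nucleolar ribonucleoproteins, stood at 50.3 against 22.4 CPM (1.13), and the abundant nucleolar genes Ncl (0.36) and Nop56 (0.55) stayed under 1.5-fold. The growth and translation factors had a median of 0.21 over 33 genes, with 1 higher, Shmt2 (0.61). Myc, the transcription factor that drives growth and proliferation in many cell types, stood at 108 against 96.5 CPM (0.16, ratio interval 0.91 to 1.36), and its network had a median of 0.01 over 7 genes, with none higher and 1 lower. That gene was Mnt, a repressor that competes with Myc for Max, at 14.4 against 22.9 CPM (-0.64, from 18 UMIs in the high-share cells). Tnfaip3, which encodes the NF-κB inhibitor A20, stood at 26.3 against 28.5 CPM (-0.11, ratio interval 0.61 to 1.37). At 2000 UMIs Myc was detected in 17.5% of the high-share cells (12.5 to 23.5) and in 16.9% of the cells without rule UMIs (14.4 to 19.7).

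Immediate early genes were slightly lower in the high-share cells, with a median of -0.16 over 26 genes, 2 of them above the comparison cells and none past 1.5-fold. Jun stood at 4595 against 4934 CPM (-0.10), Fos at 3346 against 3867 CPM (-0.21) and Klf4 at 322 against 403 CPM (-0.32). Homeostatic microglia genes had a median of -0.06 over 34 genes with none past 1.5-fold in either direction. P2ry12, the purinergic receptor, stood at 2260 against 2712 CPM (-0.26), Gpr34 at 812 against 1002 CPM (-0.30) and Fcrls at 1622 against 1426 CPM (0.19). The 11 p53 targets had a median of -0.11, heat shock genes 0.18 over 8, glycolysis 0.12 over 14, interferon response -0.0037 over 13, activation and lysosome -0.04 over 19, and cytokines and chemokines 0.06 over 16, none with a member past 1.5-fold. Ccl12, the most abundant chemokine of the list, stood at 3624 against 2732 CPM (0.41).

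Markers of other cells were scarce in both groups. Monocyte markers summed to 3.99 CPM in the high-share cells and 3.17 CPM in the comparison cells, and perivascular macrophage markers to 0 UMIs and 6 UMIs. Neutrophil markers summed to 4.79 against 7.07 CPM, neuronal markers to 3.99 against 2.68 CPM, red blood cell markers to 4.79 against 2.68 CPM and endothelial and mural markers, mostly Pecam1, to 18.4 against 16.8 CPM. Oligodendrocyte lineage markers, mostly Mag, summed to 71.9 against 72.1 CPM, astrocyte markers, nearly all Slc1a3, to 107 against 113 CPM, and lymphocyte markers, nearly all Cd79b, to 43.9 against 35.1 CPM. The 9 microglia markers had a median log2 ratio of -0.04.

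Of the genes with a mean of at least 50 CPM, the 10 with the highest ratios in the high-share cells were Stmn1, Tipin, Pcna, A430005L14Rik (0.89), Tmpo (0.87), Hmgb2, Dek (0.76), Nap1l1 (0.75), Mettl1 (0.74) and Taf1d (0.65). Tmpo encodes a lamina-associated protein, Dek a chromatin architectural protein and Nap1l1 a histone chaperone. Dek stood at 156 against 91.4 CPM (log2 ratio 0.55 against all other cells, short of 1.5-fold) and Nap1l1 at 118 against 69.7 CPM. The 10 lowest were Gem (-0.80), Mrps36 (-0.73), Sult1a1 (-0.70), Ccng2 (-0.70), Itpripl1 (-0.61), Lsp1 (-0.57), Mtif2 (-0.57), Papss1 (-0.56), Sel1l (-0.54) and Clec4a3 (-0.54). Ccng2, an atypical cyclin linked to arrest, stood at 65.5 against 107 CPM, and fell short of 1.5-fold with depth weighting (-0.47), against all other cells (-0.45) and with Mcm3 left out of the rule (-0.57). Gem, a small GTPase, stood at 36.7 against 64.6 CPM, but its log2 ratio was 0.093 when cells were chosen on 1 part of the UMIs and levels read in the other. The lowest genes shared no list.

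The gradient over all cells of library 3 has no boundary, but its classes were set by the same rule genes. With every cell thinned to 2000 UMIs, 1890 cells had no rule UMI, 1029 had 1, 276 had 2, 63 had 3, 22 had 4 and 4 had 5 or more. In that order 31, 52, 62, 33, 18 and 4 of these were high-share cells. The classes with 3 or more rule UMIs were thus mostly high-share cells, and are not a check apart from the choice. The replication lists went in that order from 4215 through 4503, 4829, 5575 and 6208 CPM to 9406 CPM, the last value resting on 4 cells. The G2/M list stood at 623, 651 and 706 CPM with 0, 1 and 2 rule UMIs, at 1016 and 963 CPM with 3 and 4, and at 2899 CPM in the 4 cells. Immediate early genes stood at 37253, 36373, 36512, 34965, 32055 and 32475 CPM in the same order. Homeostatic genes varied between 108959 and 117265 CPM over the 6 classes.

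**Figure D5:**
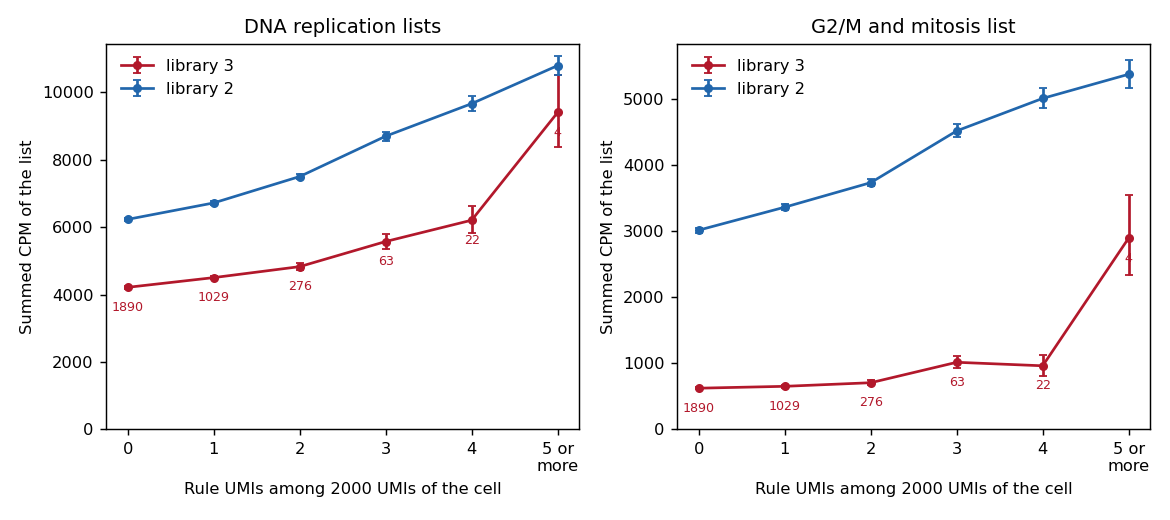
Summed CPM of the 5 DNA replication lists (left) and the G2/M and mitosis list (right) against the number of rule UMIs among 2000 UMIs of a cell, in library 3 (red, number of cells below each point) and library 2 (blue), with exact 95% Poisson intervals. In library 3 the G2/M list stays near 623 to 706 CPM up to 2 rule UMIs, while library 2 starts at 3019 CPM.

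The same rule was applied to the other libraries, which hold other animals and an unknown time point each. The rule genes summed to 179 CPM in library 1, 593 CPM in library 2 and 295 CPM in library 3. A share at or above that of the lowest high-share cell was reached by 27 of 408 cells in library 1 (6.62%, 4.41 to 9.48) and by 984 of 3569 in library 2 (27.6%, 26.1 to 29.1), against the 200 of 3284 (6.09%) fixed in library 3. Library 1 is shallow, so that few UMIs suffice there to pass this share. The 200 highest cells of library 2 had shares from 0.135% to 0.324% and a median of 13 rule UMIs. They were set against the 318 cells of library 2 without rule UMIs. Depth differed, with a median of 8096.5 UMIs in the 200 cells and 4778 in the 318. In the 200 highest cells 69 of 89 replication genes were at least 1.5-fold higher, with a median log2 ratio of 1.09. So were 41 of 46 G2/M genes, with a median of 1.29, and 8.11% of all 6051 genes compared.

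Mitotic genes are given for the 2 sets of 200 cells side by side. Top2a was detected at 2000 UMIs in 48.5% of the library 2 cells (41.4 to 55.7) and 3.5% of the high-share cells of library 3, and Mki67 in 24.0% (18.3 to 30.5) and 1.5%. Before thinning, at least 3 UMIs of Mki67, Top2a and Cdk1 were found in 138 of the 200 library 2 cells, and in 8 of the 200 of library 3. The library 2 cells were deeper, with a median of 8096.5 UMIs against 5873, so 3 UMIs were easier to reach there. The library 2 cells without rule UMIs had Top2a in 17.0% (13.02 to 21.6) and a G2/M sum of 2397 CPM, above the 1106 CPM of the high-share cells of library 3. The origin licensing and helicase list summed to 1142 CPM in the library 2 cells and 644 CPM in those of library 3. Of its members, Mcm7 was detected in 17.5% (12.5 to 23.5) and 6.5% (3.5 to 10.9), and Mcm2 in 26 of the 200 library 2 cells (8.7% to 18.5%) and 9.0% (5.4 to 13.9) of those of library 3. Myc was detected in 11.5% (7.4 to 16.8) and 17.5% (12.5 to 23.5). The difference between the libraries was not tested, since each is 1 library, and time point and library cannot be told apart.

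The genes of the 2 libraries overlapped. Of the 103 genes higher in the high-share cells of library 3 that could also be compared in library 2, 57 were higher there too, which is 55.3% of the 103 and 17.9% of the 318 higher in library 2, where 5.64% of the 5638 genes compared in both were higher. Of 51 genes lower in library 3, 12 were lower in library 2 (23.5%, and 8.05% of 149), where 2.64% of the 5638 were lower (2.69% of all genes compared there). None of the 103 was 1.5-fold lower in library 2, and 2 of the 51 (3.92%) were higher there. These were Mapk8, which encodes the kinase JNK1 (-0.64 in library 3 and 0.77 in library 2), and Mzt1, of the gamma-tubulin complex (-0.61 and 0.66). Cdca7 (1.30 and 1.14), Cbx5 (1.253 and 1.22) and Mcm2 (1.65 and 1.58) had similar log2 ratios in library 3 and library 2, Pcna was at 1.17 and 2.75, and Cdk4 was at 0.28 and 0.87. Znhit6 (1.13 and 0.25) and Mettl1 (0.74 and -0.07) were not past 1.5-fold in library 2.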

How the data were processed

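Per the labels, YFP(+) lumbar cord cells were sorted and profiled by droplet sequencing of 3′ ends. Genotype, age, pooling of animals and the gating out of doublets are from the study's methods only. The study's data statement names another data record and its methods another version of the kit than the labels do, so that these details may not hold for these libraries. The deposited matrix holds UMI counts for 27998 genes and 7522 cells. The authors made it, per the submitters' processing notes, with Cell Ranger 2.1.1 on mm10, and the values are raw counts that were neither filtered nor normalised here beyond the minimum of 2000 UMIs. No doublet caller was run. Of the gene identifiers, 27645 were found in GENCODE M21.

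Cells were ranked by the share of UMIs on the 10 rule genes, ties by rule UMIs and file order. UMIs were summed per group and scaled to CPM. Genes other than the rule genes with a mean of at least 20 CPM were compared as the log2 ratio of CPM + 1, with a threshold of 1.5-fold. With 1 library per time point there is no test between samples, so no p-value is given. Intervals are exact 95% Poisson, Clopper-Pearson or conditional binomial intervals; a ratio interval is of the CPM ratio without the added 1. For shares of cells, each cell was thinned to 2000 UMIs (seed 1). Named genes are the rule genes, the 10 highest and 10 lowest ratios at a mean of at least 50 CPM, for each list the 3 most abundant, 2 highest and 1 lowest compared gene (not all are printed), and Mki67, Top2a, Cdk1, Pcna, Rrm2, Myc, Tnfaip3, Stmn1, Cdkn1a and Ccnd1. Mcm4, Cdt1, Gmnn, Orc6, E2f1, E2f2, Rb1, Mapk8 and Mzt1 were added after their values were seen. The members, lists and tests were chosen with earlier results of these data known. Promoters are from RefSeq, GRCm38.p6: rule genes and genes of the replication lists with a match, highest log2 ratio first (for rule genes a value the choice fixed), passing over a promoter within the GENCODE span of its gene. The fourth, the replication list gene Orc1 (4 UMIs), is not printed. Alternatives were other level filters, folds, pseudocounts and numbers of cells, depth-weighted or thinned counts, split UMIs, another comparison group, each rule gene left out, mean per-cell CPM, a cell filter (mitochondrial share over 10% or UMIs over the 99th percentile left out) and, chosen after seeing the data, removal of the 20 highest cells or of shared barcodes. The scripts were tested on simulated data. Python 3.11.15, numpy 2.4.6, scipy 1.17.1, pandas 2.3.3 and matplotlib 3.10.9 were used.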

Additional observations from a re-analysis of the deposited data

Results flagged for a closer look

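Mapk8 and Mzt1 were at least 1.5-fold lower in the high-share cells of library 3 and at least 1.5-fold higher in the 200 highest cells of library 2, each against the cells of its own library without rule UMIs. The log2 ratio of Mapk8 was -0.64 in library 3 (16 UMIs in the high-share cells and 84 in the comparison cells) and 0.77 in library 2. That of Mzt1 was -0.61 (25 and 127 UMIs) and 0.66. These were 2 of the 51 genes (3.92%) lower in library 3 that could also be compared in library 2. Of all 5638 genes compared in both libraries, 5.64% were higher in library 2, so the 2 genes were no more than that share. With 1 library each, the difference between the libraries was not tested.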

How the results depend on the processing

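The direction of these 5 list medians was kept in all alternatives run, and their size was not. Values are given in the order replication, G2/M, ribosome biogenesis, immediate early and homeostatic lists, where they moved by more than the counting interval of the list's summed ratio. Thinning to 2000 UMIs gave 0.41, 0.35, 0.16, -0.11 and -0.072, and split UMIs gave 0.39, 0.34, 0.10, -0.11 and -0.036. With 100 cells the replication, G2/M and immediate early medians were 0.55, 0.73 and -0.23, and with 400 cells 0.32, 0.17, -0.11 and, for homeostatic genes, -0.047. Against all other cells the replication, ribosome and homeostatic medians were 0.39, 0.12 and -0.035. With mean per-cell CPM the replication, G2/M and immediate early medians were 0.41, 0.31 and -0.14, and without the 20 highest cells 0.42, 0.33 and -0.14. Weighting the comparison cells by depth gave 0.40 for replication and -0.038 for homeostatic genes, a pseudocount of 5 gave 0.43 for replication, and level filters of 5 and 50 CPM gave 0.61 and 0.33 for replication, with 0.79 for G2/M at 5 CPM. Leaving out each rule gene gave medians from 0.40 to 0.47 for replication, 0.33 to 0.52 for G2/M, 0.20 to 0.26 for ribosome biogenesis, -0.17 to -0.13 for immediate early and -0.062 to -0.044 for homeostatic genes.

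The numbers of higher and lower genes differed between settings, at other thresholds and at the same thresholds. They were 498 and 370 at 5 CPM and 16 and 5 at 50 CPM. With a lower fold threshold they were 637 and 406, and at 2-fold 22 and 2. A pseudocount of 5 gave 70 and 31, thinning 316 and 382, and split UMIs 175 and 196. With 100 cells they were 269 and 206, with 400 cells 58 and 19, and against all other cells 57 and 37. Gem turned to 0.093 with split UMIs. Of 308 values of single genes under alternatives, 304 kept their sign; the others were Gem and 3 values of Myc, the lowest -0.083. Calls of single genes were lost for Pcna with split UMIs, Hmgb2 with 400 cells, Dek against all other cells (0.55), Ccng2 in 3 settings, all given above, and Gem with 400 cells (-0.28) and without Mcm5 (-0.49) or Slbp (-0.30). Mcm7 was at 0.62 after thinning, and Mki67 ranged from 1.32 to 3.03 and Top2a from 2.69 to 4.19. Tipin was at 0.64 after thinning, 0.74 with split UMIs and 0.81 against all other cells. Stmn1 ranged from 0.76 without the 20 highest cells to 1.76 with 100 cells. Without thinning, Mcm2, Pcna, Stmn1 and Top2a were detected in 26.0%, 36.5%, 40.5% and 9.5% of the high-share cells. In library 2, cells at or above the lowest high-share value gave medians of 0.77 (replication) and 1.09 (G2/M). The causes were not tested. At a median of 5 rule UMIs per cell, depth limits how well any single cell can be placed.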
